A study of Mus musculus with 4 samples.

Results

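Immediate-early genes are switched on within minutes of a stimulus from transcription factors that the cell already holds, so they need no new protein. Growth factors reach them mainly through ERK kinases and serum response factor, and stress reaches them through JNK, p38 and CREB family factors. Many of their products are transcription factors: Fos and Jun proteins pair through leucine zippers into AP-1, which binds DNA and controls later genes. In the gut epithelium AP-1 genes are known to respond to growth factors, to injury and to the handling of cells during isolation.

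The set described here holds 10 such genes. They are the Fos genes Fos and Fosb, the Jun genes Jun, Junb and Jund, the stress-induced Atf3, the zinc finger factor Egr1, the orphan nuclear receptor Nr4a1, and Ier2 and Ier3, named as immediate early response genes. Members were taken as the probe sets whose only gene symbol in the platform annotation was one of these names. This gave 12 probe sets of 45101 on the array and 10 genes of 18194 named genes. Jun had 2 probe sets (1417409_at and 1448694_at) and Jund had 2 (1449117_at and 1440265_at). The other 8 genes had 1 each. One Jund probe set, 1440265_at, lay between 1.98 and 2.09 (log2) on all arrays, below the floor of 5 under which a value was not taken as a level, and was not used.

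Expression was measured in male mouse colon on 4 arrays in 2 pairs. The first pair came from normal colon of H2B-GFP mice, which make a histone joined to green fluorescent protein from a tetracycline-responsive element. After 7 days of doxycycline and 2 days of withdrawal, crypt cells were sorted into GFPhigh cells, which kept the label and were non-proliferating, and GFPlow cells, which had diluted it and were proliferating. The second pair came from isolated crypts of mice with doxycycline-inducible β-catenin, the transcriptional effector of Wnt signalling. Dox minus crypts were from untreated mice, and Dox plus crypts were from mice that drank 2.0 mg/ml doxycycline for 5 days. Both GFP arrays thus came from mice that had received doxycycline earlier, while the untreated control of the second pair had neither the drug nor the induction. The number of mice behind an array and the driver line of either transgene are not given in these sources. Each group was 1 array, so no difference below has a replicate check or a test, and a difference of 2-fold (1 on the log2 scale) was only counted.

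The arrays carried epithelium as labelled. All 8 epithelial markers, among them Epcam and the keratin Krt8, were above the floor on each array. Endothelial, smooth muscle and red blood cell markers were under it on all of them. Of 9 myeloid markers, 2 were at or above the floor on GFPhigh, 4 on GFPlow, 5 on Dox minus and 5 on Dox plus. Of 6 T cell markers, 1 reached it on each GFP array and 3 on each Dox array. Of 7 fibroblast markers, 1 reached it on GFPhigh, 2 on GFPlow, 2 on Dox minus and 1 on Dox plus. Of 5 B and plasma cell markers, 1 reached it on GFPhigh and 1 on Dox minus. Of 4 neural markers, 1 reached it on each Dox array and 0 on the GFP arrays. Arrays of 1 pair had a Pearson correlation of 0.985 over all probe sets, and arrays of different pairs 0.930 to 0.941, as a description.

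The stretches just before the transcription start show some of the elements through which such genes are known to be induced. RefSeq promoters (GRCm38.p6) were at hand for 8 of the 10 members, without Egr1 and Ier2. In the 250 bases before the start, the letters TGACG, the core shared by CREB and ATF sites, stood on either strand in 5 of the 8, namely Fos, Fosb, Junb, Atf3 and Nr4a1, against 17.8% of all 32851 windows of that length. The longer TGACGCA, which contains TGACG, was found in Fosb and Nr4a1 (1.75% of all windows), with 4 copies in Nr4a1. The classical AP-1 letters TGANTCA (6.75% of windows) and the CArG box of serum response factor (1.47%) were in none of these 8 windows. Bases further upstream were not searched, so this does not show that a member lacks either site. Ier3 held no TGACG but had a GGANTTTCC match, letters of the kind NF-κB binds (1.07%). The motifs were picked with the sequences in view, and a match is a description of letters only. The windows of Fos, Fosb, Nr4a1, Atf3 and Ier3 are printed, 5′ to 3′ on the strand of the gene, to show Fos beside the members with the widest gap between pairs (Fosb) and the 3 members past 2-fold in the Dox pair. Capitals mark TGACG or its reverse complement, and in Ier3 the GGANTTTCC match.
Fos, chr12:85473640-85473889, plus strand: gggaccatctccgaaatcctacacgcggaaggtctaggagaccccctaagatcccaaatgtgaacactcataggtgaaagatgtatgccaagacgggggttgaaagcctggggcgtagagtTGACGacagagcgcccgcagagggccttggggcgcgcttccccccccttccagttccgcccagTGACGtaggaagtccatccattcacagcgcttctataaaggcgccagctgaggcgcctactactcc
Fosb, chr7:19310046-19310295, minus strand: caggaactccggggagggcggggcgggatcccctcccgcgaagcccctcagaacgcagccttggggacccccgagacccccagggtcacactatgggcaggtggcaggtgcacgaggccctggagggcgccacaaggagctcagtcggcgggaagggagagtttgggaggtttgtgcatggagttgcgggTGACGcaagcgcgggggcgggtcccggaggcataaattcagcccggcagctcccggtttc
Nr4a1, chr15:101266596-101266845, plus strand: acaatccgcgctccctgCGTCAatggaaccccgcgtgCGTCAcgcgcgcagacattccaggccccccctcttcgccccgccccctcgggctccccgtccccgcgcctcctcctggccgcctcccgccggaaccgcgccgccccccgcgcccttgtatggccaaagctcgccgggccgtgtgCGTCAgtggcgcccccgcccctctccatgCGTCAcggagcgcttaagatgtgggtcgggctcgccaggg
Atf3, chr1:191183334-191183583, minus strand: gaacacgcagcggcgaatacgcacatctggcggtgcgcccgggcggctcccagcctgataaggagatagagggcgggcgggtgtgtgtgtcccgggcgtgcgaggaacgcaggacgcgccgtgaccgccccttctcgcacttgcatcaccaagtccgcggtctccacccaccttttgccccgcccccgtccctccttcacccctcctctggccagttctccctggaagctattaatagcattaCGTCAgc
Ier3, chr17:35821463-35821712, plus strand: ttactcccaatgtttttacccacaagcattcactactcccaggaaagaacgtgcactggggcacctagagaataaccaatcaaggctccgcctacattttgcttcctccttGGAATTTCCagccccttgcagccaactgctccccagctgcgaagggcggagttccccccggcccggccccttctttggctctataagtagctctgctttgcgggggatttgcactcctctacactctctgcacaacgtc
In these windows the Fos matches began 129 and 66 bases before the start and the Atf3 match 7 bases before it. The 4 Nr4a1 matches of TGACGCA began 235, 215, 71 and 42 bases before the start.

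Between proliferating and non-proliferating sorted cells, the values of the immediate-early genes lay close together. None of the 10 members was 2-fold higher or lower, against 13.1% of the 9381 measured genes. Their differences (GFPlow minus GFPhigh, log2) ran from -0.37 for Junb to 0.50 for Ier3, with a median of 0.09, and 6 lay above 0, as did 53.2% of all measured genes. Over all measured genes the median difference was 0.04, and 62.5% of genes lay within 0.50 of 0 in either direction. With 1 array a group this does not show that the cells are alike.

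Among the Fos genes, Fos read 14.96 on GFPhigh and 14.98 on GFPlow, a difference of 0.02. Its level was not far from the top of the deposited scale, whose highest value was 16.27. Fosb, a close relative of Fos, read 9.98 and 9.91 on the same arrays, a difference of -0.07. Neither Fos gene separated dividing from non-dividing sorted cells on these arrays.

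Jun genes encode the partners of Fos in AP-1. Jun read 14.12 on GFPhigh and 13.94 on GFPlow by its stronger probe set, a difference of -0.18, while its second probe set read 10.75 and 11.45, a difference of 0.70. The 2 probe sets thus pointed in opposite directions, and no direction is given for Jun. Junb, often described as a brake on Jun, read 11.45 and 11.08. Jund, the Jun gene least dependent on stimulation, read 13.83 and 14.04, a difference of 0.21.

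Outside the Fos and Jun genes the values also lay close together. Atf3, a stress-induced repressor that can pair with Jun proteins, read 10.60 on GFPhigh and 10.38 on GFPlow. Egr1, a zinc finger factor induced by ERK signalling, read 12.53 and 12.71. Nr4a1 read 9.39 and 9.55. Ier2 read 12.72 and 12.92, and Ier3, a regulator of cell survival and a target of NF-κB, read 9.28 and 9.78, the widest gap at 1.42-fold among the probe sets used for the members. The plot of levels by array shows each GFP pair of points nearly on top of each other.

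**Figure D1:**
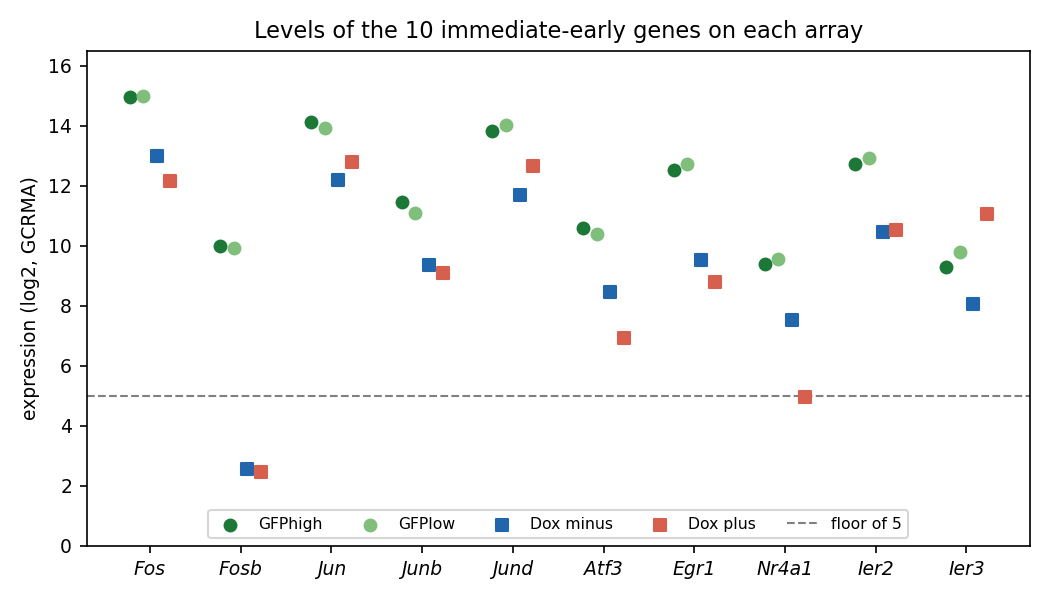
Deposited expression values (log2, GCRMA) of the 10 genes, each represented by the probe set of highest mean level, on the 4 arrays. Each point is 1 array, circles are the sorted GFP pair, squares the crypt pair, and the dashed line is the floor of 5. Circles lie close together for each gene, and squares spread most for Nr4a1 (7.53 and 4.95) and Ier3 (8.06 and 11.07).

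After 5 days of doxycycline the members parted. Ier3 was higher in Dox plus by 3.01 (8.04-fold), and Nr4a1 and Atf3 were at least 2-fold lower. That made 1 of 9 measured members 2-fold higher, against 6.93% of the 9537 genes measured in this pair, and 2 of 9 lower, against 5.35%. The median difference of the members (Dox plus minus Dox minus, log2) was -0.28, beside 0.06 for all measured genes, with 4 members above 0 and 5 below, while 55% of all genes lay above 0. Doxycycline itself and the induced β-catenin cannot be told apart, since the control had neither.

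Ier3 read 8.06 in Dox minus and 11.07 in Dox plus. Only 12 of the 9537 genes had a greater difference in favour of Dox plus. Its single probe set, 1419647_a_at, ends in _a_at, a mark of probe sets that can match several transcripts of a gene. The other immediate early response gene did not follow: Ier2 read 10.44 and 10.53, a difference of 0.09.

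Nr4a1 showed the reverse of Ier3. It read 7.53 in Dox minus and 4.95 in Dox plus, just under the floor, so the difference of -2.53 is a bound on its size (at least 5.78-fold lower). Atf3 read 8.45 and 6.93, a difference of -1.52 (2.86-fold). Egr1 read 9.51 and 8.79, a difference of -0.72 (1.65-fold), short of 2-fold.

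Among the Fos and Jun genes no value reached 2-fold in this pair. Fos read 12.99 in Dox minus and 12.15 in Dox plus, a difference of -0.84 (1.79-fold). Fosb read 2.56 and 2.44, under the floor on both arrays, and was not measured. Jun was higher in Dox plus by both probe sets, 12.19 against 12.79 by the stronger (0.60) and 10.19 against 10.86 by the other (0.67). Jund read 11.71 and 12.67, a difference of 0.97 (1.95-fold). Junb read 9.37 and 9.09, a difference of -0.28.

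Genes of other cell types differed in both directions in the same pair. The leukocyte gene Laptm5 differed by -1.53, the pan-leukocyte gene Ptprc by -0.61, the mesenchymal gene Vim by -1.78 and the plasma cell gene Jchain by -2.53 or beyond. The myeloid gene Lyz2 differed by 0.71, and of 3 measured T cell markers Gzmb differed by -0.26, Cd8a by -0.25 and Itgae by 0.19. The lists held 5 measured myeloid markers with a median of -0.08, 2 measured fibroblast markers with a median of -1.05, and 1 measured B and plasma cell marker. Averaged over all 9 myeloid markers, the level was 5.24 on the Dox minus array and 5.02 on the other. Fewer such cells and less RNA per cell cannot be told apart, and their part in the lower values of Nr4a1, Atf3 and Fos was not tested.

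**Figure D2:**
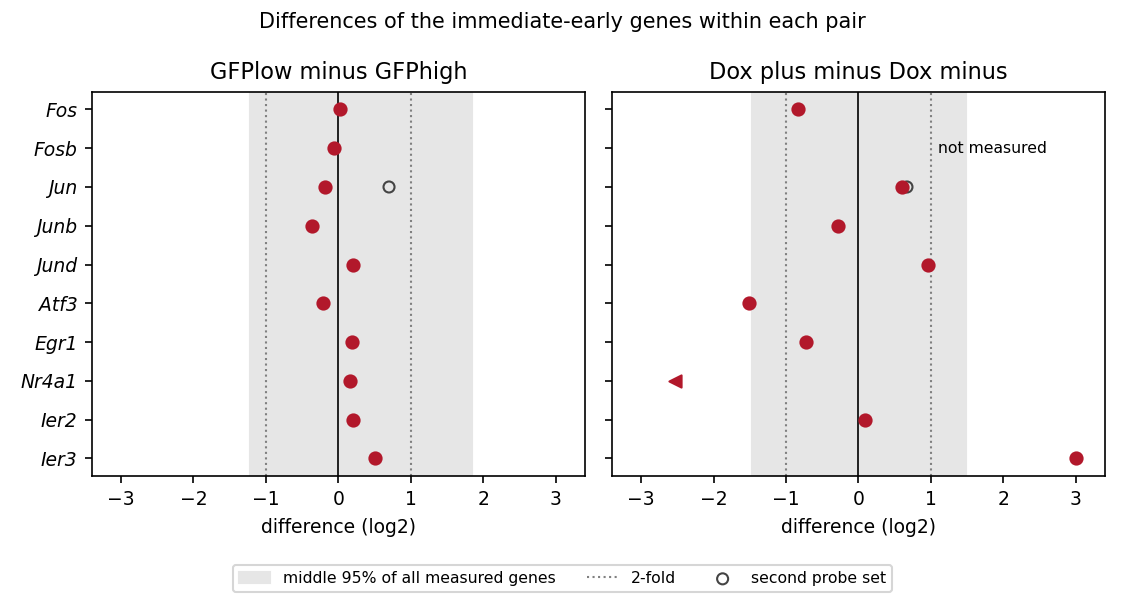
Difference of each member (log2) between GFPlow and GFPhigh and between Dox plus and Dox minus. Filled points are the probe set used, the open point is the second Jun probe set, the triangle marks a bound, dotted lines mark 2-fold and the grey band holds the middle 95% of all measured genes. All members lie inside 2-fold in the GFP pair, and Ier3, Nr4a1 and Atf3 lie outside it and outside the band in the Dox pair.

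The genes whose 2 differences lay nearest to those of Ier3, among 9023 genes measured in both pairs, were Timm9 (0.60 for GFPlow minus GFPhigh and 3.23 for Dox plus minus Dox minus), Epha4 (0.72 and 2.76), Dctd (0.55 and 2.66, both bounds), Pla2g5 (0.45 and 3.36) and Pdcd11 (0.84 and 2.83). Ier3 had the largest absolute difference of the members in both comparisons, so it alone was matched. Likeness was the straight-line distance over these 2 differences, from 0.25 for Timm9 to 0.38 for Pdcd11.

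Other AP-1 genes were measured only in part. Of 12 other AP-1 and dimer partner genes on the array, 6 were measured in the GFP pair. All 6 had lower values in GFPlow (53.2% of all genes were above 0), 2 of them past 2-fold (4.3% of all genes were 2-fold lower). Those past 2-fold were the small Maf genes Maff (-1.11) and Mafk (-1.12), and Batf2 (-0.84) and Fosl2 (-0.76) came next. In the Dox pair 7 were measured and 2 were 2-fold lower, Mafk (-1.26) and Batf2 (-1.07), against 5.35% of all genes, while Mafg differed by 0.58 and Maf by -0.18.

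The nearest relative of Nr4a1 split between the comparisons. Nr4a2 read 3.81 on GFPhigh and 6.81 on GFPlow, at least 1.81 higher in proliferating cells, and 6.69 in Dox minus and 5.36 in Dox plus, a difference of -1.33. Nab1, a corepressor of EGR factors, differed by 0.40 and -0.71. The other 5 genes of the list of 7, among them Egr2, Egr3 and Nr4a3, were under the floor on all arrays.

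Other growth factor induced genes went both ways in the sorted cells. Of 28 measured in the GFP pair, 4 were 2-fold higher in GFPlow (8.81% of all genes) and 3 lower (4.3%). The higher ones were the polo-like kinase Plk2 (2.11), Myc (1.46), the matricellular gene Ccn1 (1.46) and Arc (1.14), and the lower ones were the kinases Sgk1 (-1.32) and Plk3 (-1.29) and the zinc finger gene Klf6 (-1.02). In the Dox pair 25 were measured. Myc (2.88) and Phlda1 (2.32) were 2-fold higher (6.93% of all genes), and Gadd45g (-1.05, a bound) was 2-fold lower (5.35%). The median of the list was -0.37 between the sorted populations and -0.23 between the crypt arrays.

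Of 10 ERK and JNK phosphatase and feedback genes measured in the GFP pair, 1 was above 0 (53.2% of all genes). This was Spry1 (1.90), also the 1 gene past 2-fold (8.81% of all genes were 2-fold higher). The next largest differences were Errfi1 (-0.52) and Dusp6 (-0.45). In the Dox pair 3 of 12 were 2-fold lower and 0 higher, against 5.35% and 6.93% of all genes. These were the receptor tyrosine kinase antagonist Spry4 (-2.02), the ERK phosphatase Dusp6 (-1.32) and the EGF receptor inhibitor Errfi1 (-1.14). Of 5 measured EGF receptor ligand and receptor genes, the ligand Ereg was higher in Dox plus by 2.50, reading 7.15 and 9.66, and it was lower in GFPlow by at least 1.22. Hbegf differed by -0.46, Btc by 0.39 and Tgfa by -0.29 in the Dox pair.

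NF-κB feedback genes were lower in GFPlow in all 7 measured cases (53.2% of all genes were above 0), 2 of them past 2-fold (4.3% of all genes), the ubiquitin editor Tnfaip3 (-1.12) and the apoptosis inhibitor Birc3 (-1.07). In the Dox pair 2 of 8 were 2-fold lower (5.35% of all genes), Tnfaip3 (-1.30) and Nfkbie (-1.23, a bound), and Nfkb2 differed by 0.58 and Nfkbia by 0.41. Upstream kinases and serum response factors had 12 measured genes and 0 past 2-fold in either pair. Srf differed by 0.66 and Creb1 by 0.28 in the GFP pair, and Creb1 by 0.43 and Mrtfb by 0.35 in the Dox pair. The kinases of this list carry the signal by phosphorylation, which an array does not read.

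Heat shock and ATF4 response genes often accompany Atf3 in stressed cells. Of 10 measured heat shock genes, Hspb1 (2.22) alone was 2-fold higher in GFPlow and 0 were lower, near the shares of 8.81% and 4.3% over all genes. It was followed by Hsph1 (0.99), Hspe1 (0.95) and Hspd1 (0.76). In the Dox pair 8 of 9 lay above 0 (55% of all genes) with a median of 0.54, Hsph1 (1.65) past 2-fold, and Dnajb1 (-0.75) was the one below 0. ATF4 response genes had 3 of 6 past 2-fold and higher in Dox plus (6.93% of all genes), Atf5 (1.99), Ddit4 (1.29) and the asparagine synthetase Asns (1.06), and Asns (1.76) was the one past 2-fold in GFPlow.

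**Figure D3:**
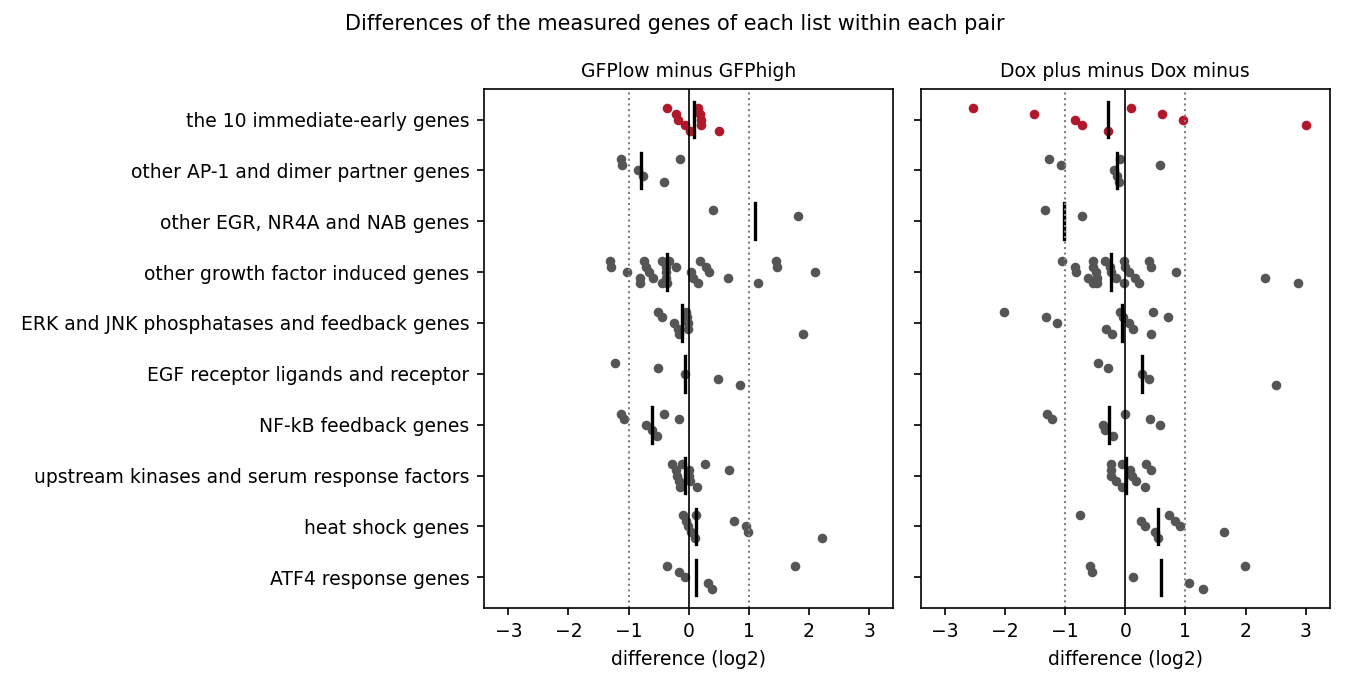
Differences (log2) of the measured genes of each list in both comparisons. Each point is 1 gene, the bar is the median of its list and dotted lines mark 2-fold. The 10 immediate-early genes cluster near 0 for GFPlow minus GFPhigh (median 0.09) and range from -2.53 to 3.01 for Dox plus minus Dox minus.

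The widest contrast in the members was between the pairs of arrays. For 9 of the 10 members both GFP arrays lay at least 2-fold above both Dox arrays, against 9.81% of the 9895 genes that reached the floor on any array, and 6.21% of genes lay at least 2-fold the other way. The pairs differ in mouse line, cell sorting, doxycycline history and possibly array processing, and these cannot be told apart. The 18S ribosomal RNA control probe sets read 12.39 to 13.59 on the GFP arrays and 2.11 to 3.83 on the Dox arrays, and the part of this in the gap was not tested. The β-actin and Gapdh control probe sets, in contrast, read between 13.66 and 15.23 on all arrays.

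Fosb stood furthest apart. It read 9.98 and 9.91 on the GFP arrays and was under the floor on both Dox arrays, a gap of at least 4.91 (30.1-fold) between the lower GFP array and the floor. Egr1 read 12.53 and 12.71 against 9.51 and 8.79, with 3.02 (8.10-fold) between the nearest arrays of the 2 pairs. For Ier2 that gap was 2.19, for Fos 1.97, for Atf3 1.94 and for Nr4a1 1.86. The Jun genes had the smaller gaps, 1.71 for Junb, 1.16 for Jund and 1.15 for Jun. The second Jun probe set overlapped between pairs, reading 10.75 and 11.45 against 10.19 and 10.86. Ier3 was the exception among the genes, since its GFP values (9.28 and 9.78) lay between Dox minus (8.06) and Dox plus (11.07).

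Other genes of the response followed in part. Of 28 other growth factor induced genes that reached the floor, 12 had both GFP arrays at least 2-fold above both Dox arrays. The other way lay 0, and the shares over all genes were 9.81% and 6.21%. The nearest arrays were 4.34 apart for Plk3 (a bound), 4.33 for the antiproliferative gene Btg2, 3.33 for Klf2 (a bound), 2.94 for Gadd45g and 2.65 for Ccn1. Yet among the growth factor induced genes, Klf4, Klf6, Klf10, Btg1 and Ier5 were not 2-fold higher on the GFP arrays. Sgk1 and Socs3 were lower there. The same count gave 3 of 13 ERK and JNK phosphatase and feedback genes, with 1 the other way. Among them Dusp1 read 12.77 and 12.51 against 9.12 and 9.09. It gave 1 of 5 EGF receptor ligand and receptor genes, with 0 the other way and a median gap between pair means of -0.48. That gene was Hbegf, at 11.23 and 11.16 against 7.61 and 7.15. For other AP-1 genes it gave 1 of 7, with 1 the other way, and for NF-κB feedback genes 2 of 8, with 0.

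Heat shock genes were not uniformly higher in the sorted cells. Of 10 heat shock genes, 2 had both GFP arrays 2-fold above both Dox arrays, beside 9.81% of all genes. These were Hspa1a (12.27 and 12.39 against 8.50 and 9.23) and Dnajb1 (12.37 and 12.47 against 10.49 and 9.75). The median gap between pair means was -0.02 for that list, 2.37 for the members and 0.15 for all genes. Of 6 ATF4 response genes that reached the floor, 3 had both GFP arrays 2-fold above both Dox arrays (9.81% of all genes). Their gaps were 2.10 for Ddit3, 1.54 for Ddit4 and 1.23 for Atf4, and 1 gene lay 2-fold the other way (6.21%). Leukocyte markers mostly lay lower on the GFP arrays. Ptprc read 2.47 and 4.41 on the GFP arrays against 7.19 and 6.58, and Laptm5 3.53 and 5.53 against 7.58 and 6.05, while Cd14, which epithelium can also express, read 13.39 and 13.60 against 10.05 and 10.03.

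**Figure D4:**
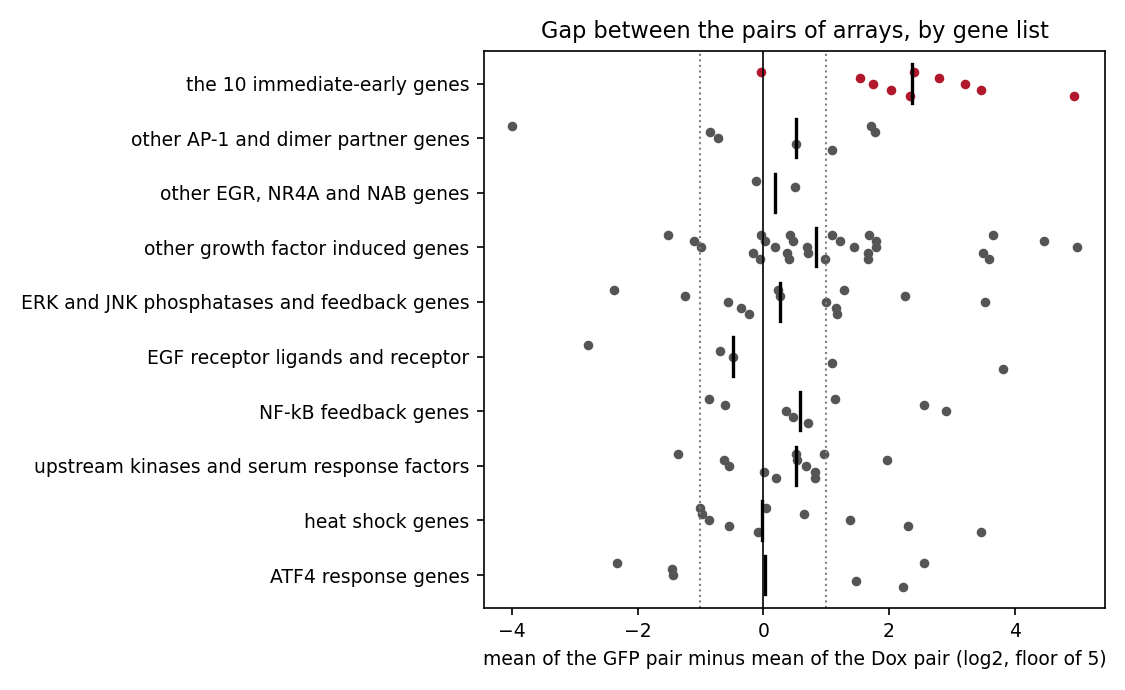
Mean of the GFP pair minus mean of the Dox pair (log2, values under 5 set to 5) for genes of each list that reached the floor on any array. Each point is 1 gene, the bar is the list median and dotted lines mark 2-fold. The median is 2.37 for the 10 immediate-early genes and -0.02 for heat shock genes.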

How the data were processed

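The deposited values are log2 expression summaries, 1 for each probe set on each array. Per the submitters' processing notes they come from GCRMA, which models background from probe sequence. No source used here gives its version or says whether all arrays were run together. That the scale is log2 was taken from the range of the values (0.47 to 16.27).

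Probe sets with 1 gene symbol (34958) were kept, and 932 with several and 9211 with none were not. A gene was represented by whichever of its probe sets had the greatest mean level across the 4 arrays. A gene was measured in a comparison when 1 of its arrays reached 5, and values under 5 were set to 5, so a difference with 1 array below it is a bound. Differences were taken within pairs in Python 3.11.15 with pandas 2.3.3. The counting of 2-fold genes was also run on simulated data with shifts set past that threshold. That run checks the calculation only, not the noise of real arrays. No test between groups was run, as each group had 1 array, which limits the precision. Every member is named, and of each other gene list up to 4 genes with the largest differences and those past 2-fold. Cell markers, and genes named only as under the floor, fall outside this rule. In the comparison across pairs, genes were named after their values were seen. The members and lists were chosen with earlier results of these data known. Alternatives were floors of 4 and 6, no floor, quantile normalization, loess (span 0.4), the mean of probe sets, exclusion of the _x_at, _s_at and _a_at probe sets, and a 3-fold threshold. The comparison across pairs and its alternatives were chosen after seeing the data. Promoters were read from RefSeq (GRCm38.p6). Some genes of the lists were not analysed here.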

Additional observations from a re-analysis of the deposited data

How the results depend on the processing

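The absence of 2-fold members in the GFP pair held under each alternative. In the Dox pair 3 members were past 2-fold under all settings except 2: a 3-fold threshold left 2, without Atf3, and exclusion of the _x_at, _s_at and _a_at probe sets left 2, since Ier3 has no other probe set. That setting moved the members' median from -0.28 to -0.50 over 8 genes. Of 131 member differences under alternatives 128 stayed within 0.1 (log2) and 0 changed sign past 2-fold. The exceptions were Nr4a1, -1.53 with a floor of 6, Atf3, -1.66 with quantile normalization, and Jun in the GFP pair, 0.26 as the mean of its probe sets. Between pairs, 9 members stayed apart with either other floor, with no floor and with quantile normalization of all arrays together. The same 9 stayed apart without the _x_at, _s_at and _a_at probe sets, and the mean of probe sets left 8. Loess and a 3-fold threshold were not run between pairs. The gaps of Jun (2.21-fold) and Jund (2.23-fold) between the nearest arrays were short of 3-fold. No paired analysis was possible because each group had 1 array. Signal near the background model limits Fosb and Nr4a1 in the Dox pair.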
